A study of Mus musculus with 20 samples.

Results

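The genes described here are 9 subunits of Polycomb repressive complex 1 (PRC1): Ring1, Rnf2, Rybp, Cbx2, Cbx7, Cbx8, Pcgf1, Pcgf6 and Bmi1. They were taken by name from the 23284 genes of the deposited tables. The study asked which mRNAs are bound by the Tet enzymes in mouse embryonic stem cells (ESCs). In RIP-Seq, RNA recovered with an antibody against a tagged protein (IP) is sequenced beside the total RNA of the cells (input). The IP here was made from cytoplasmic extract, so a difference between IP and input also holds any difference between the cytoplasm and the whole cell, and these cannot be told apart. There were 20 libraries in 10 IP and input pairs: 2 pairs from Tet1-KI cells, 4 from Tet2-KI cells and 4 from cells whose tagged Tet2 lacks its RNA-binding domain, called Tet2dRBD here. In all 3 lines a triple Flag, HA and Twin-Strep tag was placed by CRISPR at the end of the endogenous Tet1 or Tet2 gene, and the IP used an anti-Flag antibody. All cells were grown in serum and LIF on gelatin, and no untagged cells enter these comparisons. Each line came from picked clones, so a difference between lines is also a difference between clones. The methods describe IgG control reactions, which are not analysed here. A level in the IP above the input therefore contains whatever the beads retain without the tag.

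PRC1 is a ubiquitin ligase that places one ubiquitin on histone H2A and keeps developmental genes silent in ESCs. Its catalytic core is Ring1 or Rnf2 (the Ring1b protein) paired with a Pcgf protein. In canonical complexes a Cbx protein reads the methylation laid down by Polycomb repressive complex 2, and in variant complexes Rybp or Yaf2 takes the place of the Cbx protein. What is measured here is mRNA, not the protein complexes.

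Input levels are given as TPM, a share of all transcripts that accounts for transcript length and so allows levels of different genes to be compared. All 9 genes passed the filter on low counts. Their median TPM over the 10 inputs stood between the 15.8th percentile of all genes tested, for Cbx8, and the 90.5th, for Cbx7. Cbx7, the main Cbx reader of ESCs, was highest with a median of 98.7 TPM and a range of 81.9 to 146. Rybp followed with 64.4 TPM (35.1 to 79.4), and Rnf2, the ligase most used in ESCs, with 54.5 TPM (26.3 to 77.1). Pcgf6, of a variant complex that acts at germline genes, had 29.1 TPM (13.9 to 40.7), and Pcgf1, of the variant complex that Kdm2b brings to CpG islands, had 19.3 TPM (16.8 to 27.4). Cbx2 had 10.6 TPM (8.56 to 20.5) and Ring1, the second ligase, 8.48 TPM (6.76 to 15.7). Bmi1, a canonical Pcgf protein, had 1.80 TPM (0.59 to 2.55), and Cbx8, a reader that rises when ESCs differentiate, had 0.995 TPM (0.55 to 1.61). Within single libraries this order was kept most firmly at the steps from Cbx7 to Rybp, from Rnf2 to Pcgf6 and from Ring1 to Bmi1, which held in 10 of 10 inputs. Rybp was above Rnf2 in 9 of 10 inputs and Pcgf6 above Pcgf1 in 7 of 10. The steps from Pcgf1 to Cbx2, from Cbx2 to Ring1 and from Bmi1 to Cbx8 each held in 8 of 10, so these neighbours are less clearly separated. In such bulk RNA, fewer cells with a transcript and less of it per cell cannot be told apart.

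The libraries held 21078995 to 37576638 expected counts each. The numbers in the deposited names divide them into 3 library sets, a division that the labels do not state: replicate 1 of Tet2 and of Tet2dRBD (set A), replicate 2 of both (set B), and all others, including both Tet1 pairs (set C). Replicates 3 and 4 of Tet2 and of Tet2dRBD were far closer to each other, with a chi-square per gene of 2.79 to 17.1, than libraries of one line from different sets were, with 140 to 558. They were counted as separate samples, as labelled, although this closeness leaves them possibly technical. With replicates 3 and 4 merged, Rnf2 was still called in Tet2 and Tet2dRBD (edgeR adjusted p = 0.0046 and 0.020). All 8 ESC markers were expressed, with summed input levels of 13539 to 17340 TPM, while 6 fibroblast markers summed to between 10.7 and 63.2 TPM, 4 endoderm markers to 4.88 to 88.8 TPM, 3 mesoderm markers to 2.11 to 5.46 TPM and 3 neural markers to 10.4 to 124 TPM. Nuclear RNAs, of which 5 were in the files, summed to 82.6 to 200.1 TPM in the inputs, and 6 abundant cytoplasmic mRNAs to 26560 to 48894 TPM. The median log2 ratio of IP to input was 0.29 in Tet1, 0.13 in Tet2 and -0.12 in Tet2dRBD for the nuclear RNAs, and -0.12, -0.39 and -0.34 for the cytoplasmic ones. Both lists ran in both directions in every line. The nuclear RNAs ranged from -0.67 to 0.51 in Tet1, -0.68 to 0.48 in Tet2 and -0.59 to 0.71 in Tet2dRBD. For the cytoplasmic ones the ranges were -0.52 to 0.79, -0.72 to 0.69 and -0.64 to 0.55. The part of other cells and of the compartment in the results was not tested. Depth was ample for the abundant subunits, but Cbx8 rested on 13 to 53 and Bmi1 on 52 to 163 expected counts per input.

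Both inputs of set B departed from the other inputs of their lines in subunit levels. The Rnf2 input level was 34.1 TPM in Tet2 and 26.3 TPM in Tet2dRBD in set B, against 52.5 to 77.1 TPM in the other inputs of those 2 lines. Ring1 went the other way, with 15.7 and 15.0 TPM in set B against 7.75 to 10.4 TPM. Cbx2 was also high there, at 20.5 and 20.2 TPM against 8.56 to 10.6 TPM. Results that turn on replicate 2 are also given without it.

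**Figure D1:**
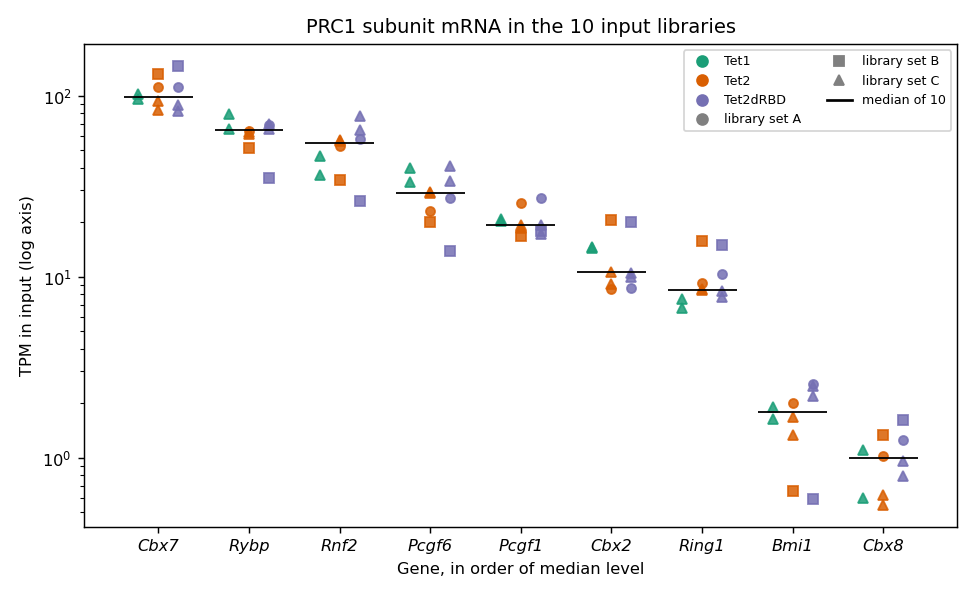
TPM of each PRC1 subunit (log axis) in the 10 input libraries, coloured by line and shaped by library set, with the median of 10 as a bar. Median levels run from 98.7 TPM for Cbx7 to 0.995 TPM for Cbx8, and the squares of library set B often stand away from the other points.

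Rnf2 mRNA was below its input in all 10 pairs. In Tet1-KI cells it went from 46.4 to 31.7 TPM in replicate 1 and from 36.6 to 26.6 TPM in replicate 2. In Tet2-KI cells it went from 52.5 to 31.9, from 34.1 to 29.4, from 56.7 to 32.5 and from 56.6 to 29.1 TPM in replicates 1 to 4. In Tet2dRBD cells it went from 57.4 to 54.2, from 26.3 to 16.9, from 64.5 to 39.3 and from 77.1 to 37.2 TPM. The smallest step was that of Tet2dRBD replicate 1 and the largest that of Tet2dRBD replicate 4. IP and input levels did not overlap in Tet1, as for 69.7% of all genes tested, nor in Tet2, as for 13.2%. In Tet2dRBD, where 5.63% of genes had no overlap, those of Rnf2 overlapped. Over all genes tested, IP lay below input in every replicate for 30.1% of genes in Tet1, 11.9% in Tet2 and 8.56% in Tet2dRBD.

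In the edgeR fit, which works on expected counts with a term for each pair, Rnf2 was lower in the Tet2 IP by a log2 effect of -0.99 ± 0.14 (SE, 4 pairs, adjusted p = 0.00059), or 0.503 times its input. It was lower in the Tet2dRBD IP as well, by -0.90 ± 0.14 (4 pairs, adjusted p = 0.0021), or 0.536 times. In the Tet1 IP the effect was -0.65 ± 0.19 (2 pairs) and did not pass, with an edgeR adjusted p of 0.068. Rnf2 was the only member called by edgeR in Tet2 and in Tet2dRBD, that is 1 of 9, where 33.1% and 19.5% of all genes tested were called. In Tet1 none of the 9 was called, where 5.9% of genes were, and 1 member had an unadjusted p under 0.05. DESeq2 called 1 member in Tet1, where it called 11.5% of genes, and that was Rnf2 with an adjusted p of 0.025. When the Tet1 libraries were fitted alone, 55.0% of genes and 3 members were called, Rnf2, Cbx2 and Cbx7, all lower, on 1 residual degree of freedom. Among all genes tested, the Rnf2 effect stood at the 3.50th percentile in Tet2, the 2.57th in Tet2dRBD and the 6.83rd in Tet1. Without the term for the pairs the calls in Tet2 and Tet2dRBD were lost (edgeR adjusted p = 0.085 and 0.23), while the effects were -1.02 and -0.92. Without replicate 2 of both lines, Rnf2 was called in all 3 lines, with effects of -1.08 in Tet2, -0.93 in Tet2dRBD and -0.66 in Tet1 (edgeR adjusted p = 0.00049, 0.0015 and 0.022). In that fit 20.9% of genes were called in Tet1.

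**Figure D2:**
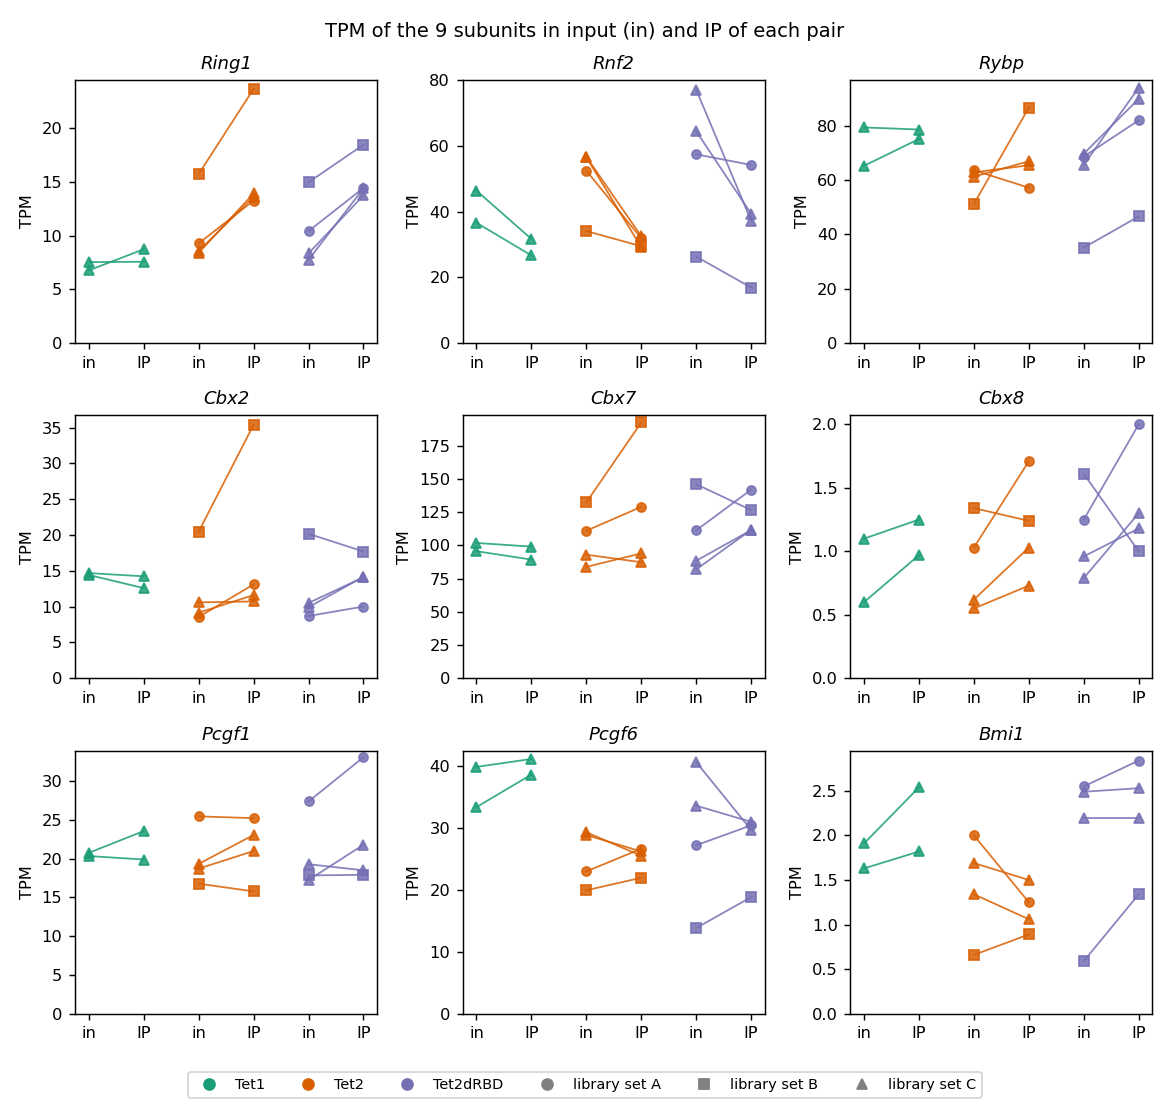
TPM of each of the 9 subunits in input (in) and IP, 1 line per pair, coloured by cell line and shaped by library set. Rnf2 falls from input to IP in 10 of 10 pairs, Ring1 does not fall in any, and the other subunits run in both directions.

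Ring1, the paralogue of Rnf2, was above its input in all 10 pairs. In Tet1-KI cells the change was small, from 7.53 to 7.56 TPM in replicate 1 and from 6.76 to 8.73 TPM in replicate 2. In Tet2-KI cells Ring1 went from 9.28 to 13.3, from 15.7 to 23.7, from 8.56 to 13.6 and from 8.40 to 13.9 TPM. In Tet2dRBD cells it went from 10.4 to 14.4, from 15.0 to 18.5, from 8.35 to 13.7 and from 7.75 to 14.4 TPM. Input and IP levels overlapped in both lines, since set B was highest in input and in IP. IP above input in every replicate held for 50.9% of all genes tested in Tet1, 46.5% in Tet2 and 31.8% in Tet2dRBD. It held for 4 of the 9 members in Tet1 (Ring1, Cbx8, Pcgf6 and Bmi1), for 2 in Tet2 (Ring1 and Cbx2) and for 2 in Tet2dRBD (Ring1 and Rybp). None of the 9 reached an IP level of 1.5 times input in every replicate of a line, and the share of all genes that did was not counted.

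The Ring1 result depended on the scale. In the edgeR fit its effect was +0.31 ± 0.13 in Tet2 (SE, 4 pairs, adjusted p = 0.084), +0.32 ± 0.13 in Tet2dRBD (4 pairs, adjusted p = 0.099) and +0.04 ± 0.18 in Tet1 (2 pairs, adjusted p = 0.93), and it was not called. On log2(TPM + 1) with limma it was called, at +0.58 in Tet2 and +0.55 in Tet2dRBD (limma adjusted p = 0.0027 and 0.0073). On that scale the median over all genes tested was itself 0.23 in Tet2 and 0.19 in Tet2dRBD, against medians of 0.0032 and -0.015 in the edgeR fit. There were 4769 genes called higher and 1125 lower in Tet2 by limma on TPM, or 43.0% of genes (27.8% in Tet2dRBD), against 2007 higher and 2533 lower by edgeR. After each pair was centred on its own median gene, Ring1 was still above input in every replicate of Tet2, by 0.18 to 0.55 on the log2 scale, and of Tet2dRBD, by 0.18 to 0.64. In Tet1 the centred values were -0.04 and 0.21. With this centring the share of all genes above input in every replicate was 41.9% in Tet1, 25.6% in Tet2 and 18.1% in Tet2dRBD. Cbx8 was the 1 member that met it in Tet1, and Ring1 the 1 member in each of the other lines.

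The 2 ligase transcripts therefore ended closer together in the IP than in the input. The Rnf2 to Ring1 ratio of TPM, which does not depend on the scaling of a library, was 5.79 ± 0.53 (SD, n = 2) in Tet1 inputs and 3.62 ± 0.80 in the IPs. In Tet2 it was 5.29 ± 2.14 (SD, n = 4) in the inputs and 2.03 ± 0.54 in the IPs, and in Tet2dRBD 6.24 ± 3.49 and 2.53 ± 1.19. The ratio was lower in the IP in 10 of 10 pairs. It is given as a description, with no test, because this pair of genes was picked after their values were seen. Set B had the lowest ratios, 2.16 and 1.76 in the inputs and 1.24 and 0.913 in the IPs.

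**Figure D3:**
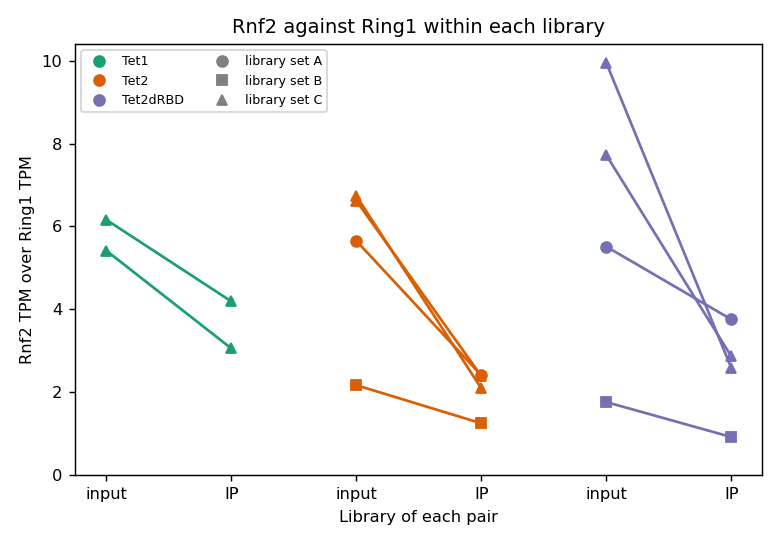
Rnf2 TPM divided by Ring1 TPM within each library, input and IP of each pair joined by a line. All 10 lines fall, and the squares of library set B start and end lowest in Tet2 and Tet2dRBD.

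Because Ring1 and Rnf2 are paralogues, the sequences were examined for reads that could be assigned to either. On mm9, the build of the deposited files, Ring1 lies on the minus strand at chr17:34157737-34161625 with 7 exons, and Rnf2 on the minus strand at chr1:153316536-153347953 with 7 exons. The longest stretch that their transcripts have in common is 14 bases of coding sequence, found at chr17:34158659-34158672 and chr1:153318799-153318812 and shown here in lower case with no base marked.
Ring1 and Rnf2: aagcagtacaccat
Rybp and its paralogue Yaf2 have a longer one of 23 bases, at chr6:100182330-100182352 and chr15:93115964-93115986.
Rybp and Yaf2: gtcattatcacagactttaagga
No word of 50 bases of any of the 9 members occurs in another gene, and no exon of theirs overlaps one of another gene.

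Both ligase transcripts differ widely in base composition. Ring1 has 60.7% GC, at the 96.3rd percentile of protein-coding genes, and Rnf2 has 39.1%, at the 4.82nd. The study described a UC-rich motif at the centres of its RNA hydroxymethylation peaks, which lay mostly in introns. Here the DNA letters TCTCTC were searched on the sense strand of each spliced transcript. Introns were not searched, so the counts do not cover most of the places where the study found its motif. The letters TCTCTC occur at 3 places in Ring1 and at none in Rnf2. Of 22611 protein-coding genes, 53.8% hold them in their longest transcript. The Ring1 sites are printed with 8 bases on each side and the TCTCTC in capitals, and they lie at chr17:34161355-34161360, chr17:34158860-34158865 and chr17:34158003-34158008 of mm9, all on the minus strand.
Ring1 5′ UTR: gctggaccTCTCTCagcggagc
Ring1 coding: gtggatcaTCTCTCcaagtacc
Ring1 3′ UTR: tgtgtgtgTCTCTCagggggag
Rybp, Cbx8 and Pcgf6 hold 2 such sites each, in the 3′ UTR of Rybp and Cbx8 and in the coding sequence of Pcgf6. Cbx2, Cbx7, Pcgf1 and Bmi1 hold none. Unbroken runs of C and T in the coding sequence gave another order. The longest was 12 bases in Rnf2, 7 in Ring1, 17 in Cbx2 and 8 to 11 in the other members. A match of letters does not show a bound or modified site.

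Among the members, GC content went with the IP effect most closely in Tet2 and only weakly in Tet1. Rnf2 and Ring1 were the members lowest and highest in GC content. Over the 9 members the Pearson correlation of GC content with the fitted effect was 0.86 in Tet2, 0.56 in Tet2dRBD and 0.25 in Tet1, given as a description. Over 13110 genes tested the same correlation had the opposite sign, at -0.095, -0.17 and -0.27. In the tenth of genes with the lowest GC content, the median effect in Tet2 was 0.16, and Rnf2 stood at the 6.18th percentile of these genes. When the GC trend of each library was removed within the paired fit, Rnf2 was lower by -1.20 ± 0.15 in Tet2, -1.20 ± 0.15 in Tet2dRBD and -1.27 ± 0.22 in Tet1 (SE; edgeR adjusted p = 0.00041, 0.00088 and 0.011). In that fit 38.4%, 24.9% and 8.65% of genes were called. Ring1 was not called in it, with +0.23 ± 0.10 in Tet2 and +0.29 ± 0.10 in Tet2dRBD (edgeR adjusted p = 0.096 and 0.057).

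The other 7 members had no call in any line, over 21 fitted effects. Rybp, which defines variant PRC1, was at 35.1 to 79.4 TPM in the inputs and 46.6 to 94.0 TPM in the IPs. It was above input in 4 of 4 Tet2dRBD pairs and in 3 of 4 Tet2 pairs, with edgeR effects of +0.11 ± 0.13 and -0.12 ± 0.13. Its Tet2 replicate 2 stood apart, going from 51.2 to 86.7 TPM, while the other Tet2 pairs changed little. Among the Cbx readers, Cbx7 had effects of -0.22 ± 0.14 in Tet1, -0.11 ± 0.10 in Tet2 and -0.04 ± 0.10 in Tet2dRBD. Cbx2 was below input in both Tet1 pairs (14.4 to 12.6 and 14.7 to 14.2 TPM) and above it in all 4 Tet2 pairs, of which the largest step was again in set B, from 20.5 to 35.4 TPM. Cbx8 stayed between 0.55 and 2.00 TPM in every library, and its low counts gave SEs of 0.26 to 0.40.

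Of the Pcgf proteins, which set the type of PRC1, Pcgf1 was within 0.24 of its input on the log2 scale of the edgeR fit in every line. Pcgf6 had -0.31 ± 0.15 in Tet2 (adjusted p = 0.12) and -0.27 ± 0.15 in Tet2dRBD (adjusted p = 0.21), and Bmi1 had -0.52 ± 0.25 in Tet2 (adjusted p = 0.12). On uncentred TPM, Pcgf6 ran in opposite directions between the library sets of Tet2 and of Tet2dRBD. In Tet2 its log2 ratios were 0.21 and 0.13 in replicates 1 and 2, and -0.13 and -0.19 in replicates 3 and 4. In Tet2dRBD it went from 13.9 to 18.9 TPM in replicate 2 and from 27.3 to 30.5 TPM in replicate 1. In replicates 3 and 4 it went from 33.7 to 31.0 and from 40.7 to 29.8 TPM. After centring on the median gene of each pair, Pcgf6 ran from -0.33 to -0.03 in Tet2. The centred Tet2dRBD values were -0.10, 0.41, -0.37 and -0.62 in replicates 1 to 4. The Pcgf6 call depended on the settings. With the GC trend removed and all pairs kept, Pcgf6 was called lower in Tet2 (-0.37, edgeR adjusted p = 0.0091) and in Tet2dRBD (-0.35, adjusted p = 0.020). Without Tet2dRBD replicate 2, Pcgf6 was called lower in Tet2dRBD (-0.44, edgeR adjusted p = 0.019) and in Tet2 (-0.28, adjusted p = 0.032), and Bmi1 in Tet2 (-0.50, adjusted p = 0.045). In that fit 2643 of 13660 genes were called lower in Tet2 and 1615 in Tet2dRBD. It left out no Tet2 library, and both of these Tet2 effects were slightly smaller in size than with all pairs. The lines share an estimate of the spread in these fits. Without replicate 2 of both lines, 3 members were called lower in Tet2 and 2 in Tet2dRBD, where 20.9% and 17.5% of all genes were called lower.

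**Figure D4:**
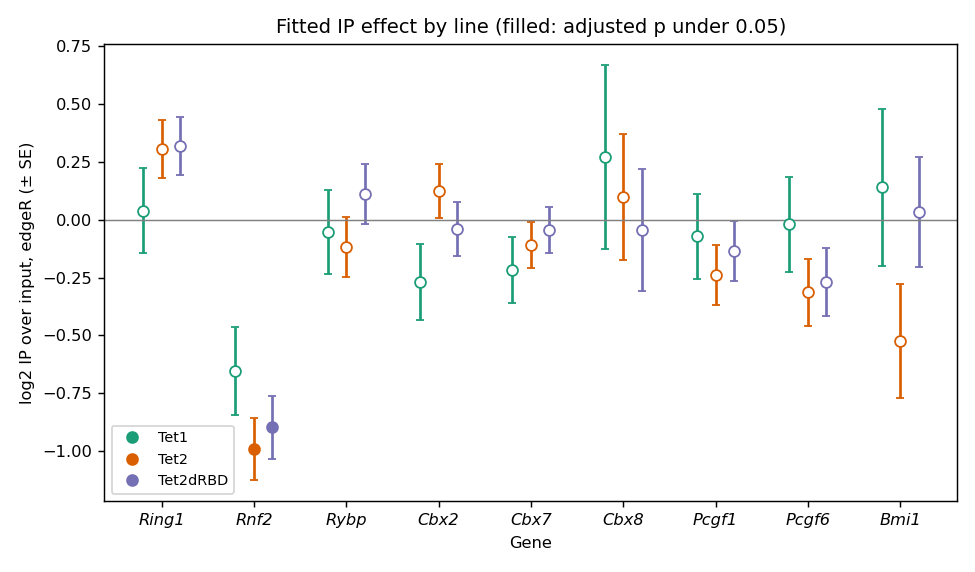
edgeR log2 effect of IP against input (± SE) for each subunit in Tet1 (2 pairs), Tet2 (4 pairs) and Tet2dRBD (4 pairs), with filled points for an adjusted p under 0.05. Only Rnf2 in Tet2 (-0.99) and Tet2dRBD (-0.90) is filled.

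The median effect over the 9 members was -0.12 in Tet2, -0.045 in Tet2dRBD and -0.054 in Tet1, beside medians of 0.0032, -0.015 and -0.036 over all genes tested. In each line 3 members were above 0 and 6 below in the edgeR fit. On the TPM scale 6 members in Tet1, 6 in Tet2 and 7 in Tet2dRBD had a mean IP level above their mean input level. The share of all genes tested that met this was not counted. The median gene was also above input in every pair on that scale, by 0.013 to 0.38 in log2. After each pair was centred on its median gene, 5 members in Tet1, 2 in Tet2 and 4 in Tet2dRBD had a mean above 0. The share of all genes was not counted for this either, and centring itself sets the median gene of each pair to 0.

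Whether the RNA-binding domain of Tet2 altered the recovery of the members was asked by the difference of the Tet2 and Tet2dRBD effects. None of the 9 differed by edgeR, where 0.0219% of genes tested were called, and none had an unadjusted p under 0.05. DESeq2 called none either. The differences ran from -0.56 ± 0.34 (SE) for Bmi1 to +0.16 ± 0.16 for Cbx2. For Rnf2 the difference was -0.09 ± 0.19 and for Ring1 -0.01 ± 0.18. By replicate number, the Rnf2 difference was -0.62, 0.41, -0.08 and 0.10 on the log2(TPM + 1) scale, so it had no stable direction. Bmi1 was lower in Tet2 than in Tet2dRBD for all 4 numbers, by -0.53 to -0.12, at levels of at most 2.84 TPM. Differences of the size of these SEs were not detectable here.

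Tet1 and Tet2 were compared in the same way, with the same Tet2 libraries. None of the 9 members differed in IP effect by edgeR, where 0.0% of genes were called, nor by DESeq2, and none had an unadjusted p under 0.05. Rnf2 differed by +0.34 ± 0.23 (SE), meaning less loss in Tet1. Since Tet1 was made in set C only, the comparison was repeated with Tet2 replicates 3 and 4. There Rnf2 differed by +0.47 ± 0.08 (edgeR adjusted p = 0.0004) and Pcgf6 by +0.39 ± 0.08 (adjusted p = 0.0035), which is 2 of 9 members where 17.2% of genes were called. Ring1 differed by -0.42 ± 0.15 in that fit (adjusted p = 0.066). With the GC trend removed, the Rnf2 difference between Tet1 and Tet2 over all pairs was -0.07. Each line has 2 closely similar pairs in that set. The study describes its RIP-Seq as done in biological replicates, but the labels do not say which libraries come from separate cultures.

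Input levels of the members were compared between lines as a check on the IP effects. Between Tet2 and Tet2dRBD inputs no member was called by edgeR, which called 0.0% of genes, or by DESeq2, which called 16 of 13310 genes. The edgeR differences ran from -0.43 ± 0.49 for Bmi1 to +0.02 ± 0.25 for Rybp. With the replicate number as a block, no member was called either and 0.0379% of genes were. Between Tet1 and Tet2 inputs no member was called, where 0.406% of genes were, and the extremes were -0.59 ± 0.36 for Ring1 and +0.47 ± 0.38 for Pcgf6. Neither input comparison gave a member an unadjusted p under 0.05. Within set C, 4 of the 8 members tested were called, Rnf2 (-0.55 ± 0.08) and Ring1 (-0.35 ± 0.14) lower in Tet1 and Cbx2 (+0.46 ± 0.10) and Pcgf6 (+0.23 ± 0.09) higher. In that fit 59.8% of all genes tested were called, so the share of members is near the background.

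The other genes of PRC1 show whether Rnf2 stood alone. The lists held 8 further canonical genes, 20 further variant genes and 6 genes of H2A deubiquitinases, which remove the mark that PRC1 places, and all 34 were tested. In the Tet2 IP 2 canonical genes were called higher and 1 lower, 1 variant gene higher and 4 lower, and 2 deubiquitinase genes higher and none lower. In the Tet2dRBD IP the calls were 1 canonical gene higher, 2 variant genes lower and 2 deubiquitinase genes higher. In Tet1 they were 1 variant gene lower and 1 deubiquitinase gene higher. Among all genes tested, 14.6% were called higher and 18.5% lower in Tet2, 7.4% and 12.1% in Tet2dRBD, and 2.72% and 3.18% in Tet1. Median effects were 0.034 in Tet2, -0.050 in Tet2dRBD and -0.18 in Tet1 for the canonical genes, and 0.18, -0.092 and -0.11 for the variant genes. Those of the deubiquitinase genes were 0.50, 0.58 and 0.60. Among these, Asxl2, Asxl3, Mysm1 and Usp16 had low mean inputs of 0.058 to 3.28 TPM across the lines, while Asxl1 and Bap1 had 26.1 to 90.5 TPM. None of the 34 differed between Tet2 and Tet2dRBD or between Tet1 and Tet2 over all pairs. Within set C, where 17.2% of all genes were called, 5 of the 32 tested differed in IP effect. Csnk2b (-0.89), Phc2 (-0.77), Cbx6 (-0.28) and Wdr5 (-0.25) were lower in Tet1 than in Tet2 and Mysm1 (+0.81) was higher, with edgeR adjusted p from 3.3e-06 to 0.029.

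The 6 with the lowest p in the Tet2 IP were Phc2, Yaf2, Csnk2a1, Cbx6, Max and Usp16. Yaf2, the paralogue of Rybp, was lower by -1.25 ± 0.18 in Tet2 and -1.17 ± 0.18 in Tet2dRBD (SE; edgeR adjusted p = 0.00069 and 0.0021), from 6.14 ± 1.78 TPM in the Tet2 inputs to 3.19 ± 0.66 TPM in the IPs (SD, n = 4). In Tet1 its effect was -0.93 ± 0.25 (edgeR adjusted p = 0.053). Rybp and Ring1, the paralogues of Yaf2 and Rnf2, were not called in that fit, and the difference within each pair of paralogues was not tested. Csnk2a1, a catalytic subunit of casein kinase II, was lower by -0.63 ± 0.11 in Tet2 (edgeR adjusted p = 0.0027). It was also called lower in Tet2dRBD and was the variant gene called lower in Tet1. Over 19 alternatives it was called in 10 in Tet2dRBD and in 7 in Tet1. Csnk2b, of the same kinase, was the variant gene called higher in Tet2. Max, the partner of Mga in the Pcgf6 complex, was lower by -0.59 ± 0.14 in Tet2 (edgeR adjusted p = 0.010).

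Phc2, a Polyhomeotic protein that lets canonical complexes polymerize, was higher in the Tet2 IP by +0.95 ± 0.13 (SE, edgeR adjusted p = 0.0005), from 26.2 ± 8.43 to 62.4 ± 14.4 TPM (SD, n = 4). In Tet2dRBD its effect was +0.21 ± 0.12 (adjusted p = 0.25), and the difference of +0.74 ± 0.18 had an unadjusted p of 0.0015 but an adjusted p of 0.50. Cbx6, a further Cbx protein, was higher by +0.55 ± 0.13 in Tet2 and +0.54 ± 0.13 in Tet2dRBD (edgeR adjusted p = 0.0079 and 0.016). Usp16, a deubiquitinase of H2A, was higher by +1.47 ± 0.38 in Tet2 and +1.22 ± 0.37 in Tet2dRBD (edgeR adjusted p = 0.013 and 0.044). Its input level was low, at 2.21 ± 0.71 TPM in Tet2 and 3.15 ± 2.68 TPM in Tet2dRBD (SD, n = 4). Its log2 ratios of TPM plus 1 ran from 0.38 to 2.24 over the Tet2 pairs and from 0.39 to 2.12 over the Tet2dRBD pairs. Usp16 lost its Tet2 call without Tet2 replicate 1 (adjusted p = 0.056) or 3 (adjusted p = 0.058), and Max lost it without Tet2 replicate 1 (adjusted p = 0.074). With no term for the pairs, 5 of these 6 genes lost their Tet2 call by edgeR: Csnk2a1 (adjusted p = 0.052), Phc2 (0.062), Usp16 (0.12), Max (0.21) and Cbx6 (0.36), while Yaf2 kept it (0.049). With limma on TPM plus 1, Csnk2a1 (adjusted p = 0.055) and Max (0.17) lost it.

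**Figure D5:**
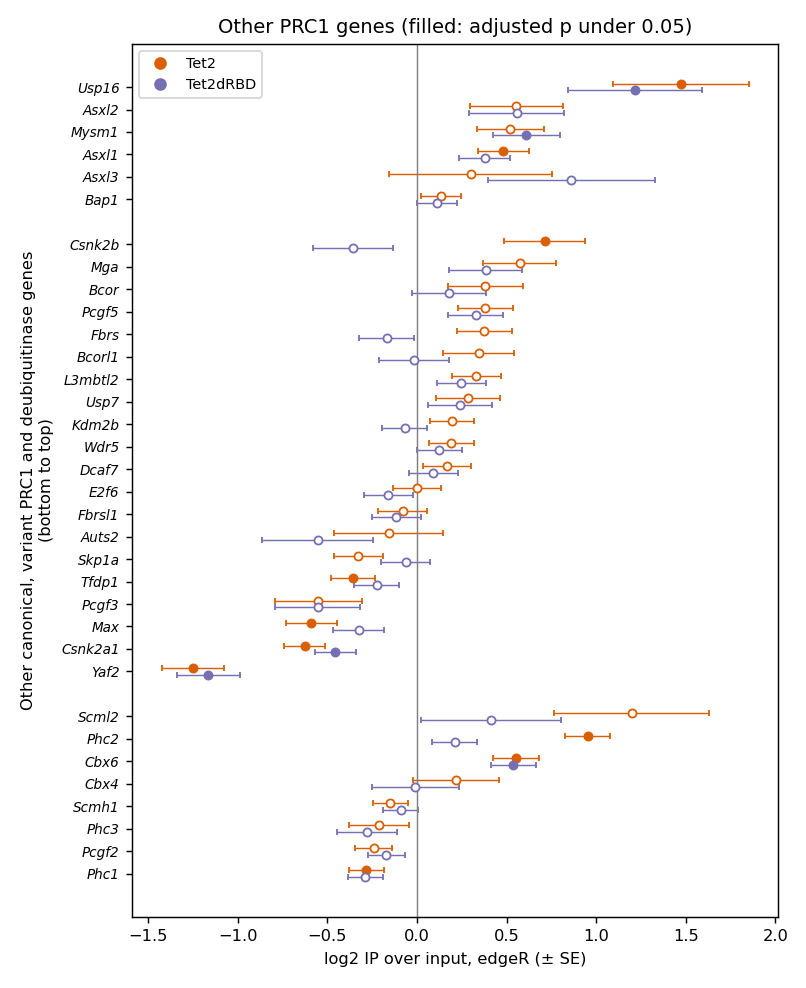
edgeR log2 effect of IP against input (± SE) in Tet2 and Tet2dRBD for 8 other canonical PRC1 genes (bottom), 20 variant PRC1 genes (middle) and 6 H2A deubiquitinase genes (top), with filled points for an adjusted p under 0.05. Yaf2 lies lowest at -1.25 in Tet2, and Phc2 is filled in Tet2 only, a difference that was not called.

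Genes whose IP to input ratio over the 10 pairs ran most like that of Rnf2 were Rlim (Pearson r = 0.949), A230072C01Rik (0.939), Tcea1 (0.939), Sacm1l (0.931) and Lamp2 (0.923), among 8440 genes with a mean input of at least 5 TPM. The pairs share library sets and depth, so this is a description of these pairs. The 12 genes that PRC1 is known to silence in ESCs, such as the Hox genes, summed to 27.4 to 112 TPM in the inputs, and 6 or 7 of them were at 1 TPM or more, depending on the line.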

How the data were processed

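RIP-Seq of mouse ESCs was analysed in 20 libraries, grouped by the labels into IP and input of Tet1-KI (2 pairs), Tet2-KI (4) and Tet2dRBD (4) cells. Per the submitters' processing notes and the methods, the authors trimmed reads with Trimmomatic, checked them with FastQC and quantified genes with RSEM and Bowtie2 on mm9 with the RefSeq transcriptome. The deposited expected counts are RSEM estimates and were rounded here. The deposited TPM columns are, by the file headers, TPM plus 1, and 1 was subtracted. The deposited FPKM columns were not used. RSEM shares reads between genes in proportion to its model, so genes with a common sequence can exchange reads. The 9 members have no word of 50 bases in common with another gene.

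edgeR 4.0.16 quasi-likelihood tests with TMM scaling were fitted on the 13710 genes with at least 1 CPM in at least 2 libraries, with 1 coefficient per pair and a separate IP coefficient in Tet1, Tet2 and Tet2dRBD, leaving 7 residual degrees of freedom. Benjamini-Hochberg adjustment ran over all genes tested, and an adjusted p under 0.05 was called. Inputs were compared by line over 10 libraries (13310 genes). limma 3.58.1, DESeq2 1.42.0 and the other alternatives are given at the end. The fits were tested on simulated counts. The rule that IP exceeds input in every replicate was applied to TPM plus 1.

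Libraries were paired by their numbers. Deviations of IP and input with the same number correlated by at least 0.61 in Tet2 and 0.58 in Tet2dRBD. Those of Tet2 and Tet2dRBD inputs did so by at least 0.69. In Tet1 they correlated by 0.18, and by -0.18 with the other number. With 2 pairs these values mirror each other by construction, so they are not separate evidence for the Tet1 pairing. Within replicates 3 and 4 the match is by library set as much as by number: IP 4 correlated with input 3 by 0.78 in Tet2 and 0.69 in Tet2dRBD, and with its own input by 0.76 and 0.58. The study describes biological replicates, but nothing in the labels says which are separate cultures. p-values measure the spread between these samples, and replicates 3 and 4 may be technical.

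Transcript sequences and coordinates came from GENCODE M1 on NCBIM37 (mm9), with the transcript nearest in length to the deposited one and at least 0.5 times as long. The Cbx8 model of the deposited files is 1393 bases long against 3580 in GENCODE. All 9 members are named, the other PRC1 genes by their counts and the 6 with the lowest Tet2 p. The members and lists were chosen with earlier results of these data known. Reads carried no molecular identifiers, so duplicates from PCR are counted as reads.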

Additional observations from a re-analysis of the deposited data

Results flagged for a closer look

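In 58 groups of 4 replicates (TPM of input, TPM of IP and log2 ratio of each member, and the Rnf2 to Ring1 ratios), 7 held a value that stood apart by Dixon's test at the 95% level, which chance gives in about 1 of 20 groups. All 7 were in replicate 2. Ring1 was highest there in the Tet2 input (15.7 TPM), the Tet2 IP (23.7 TPM) and the Tet2dRBD IP (18.5 TPM). Cbx2 was highest in the Tet2 IP (35.4 TPM) and the Tet2dRBD input (20.2 TPM). Rybp was lowest in the Tet2dRBD input (35.1 TPM), and Pcgf6 in the Tet2dRBD IP (18.9 TPM). What set replicate 2 apart was not tested.

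Cbx2 was below input in both Tet1 pairs, with a mean log2 ratio of TPM plus 1 of -0.11, and above input in all 4 Tet2 pairs. The edgeR test of this difference between the lines gave -0.39 ± 0.20 (SE, adjusted p = 0.94), so the opposite directions were not a difference that passed.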

How the results depend on the processing

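The number of members called against input was 0 in Tet1, 1 in Tet2 and 1 in Tet2dRBD. In Tet1 it was 1 with DESeq2, 3 when only the compared line was fitted (Cbx2, Cbx7 and Rnf2, with 1 residual degree of freedom and 55.0% of genes called), 1 with the replicate block and GC correction together, 1 without replicate 2 of both lines, and 0 to 1 when single replicates were left out. Rnf2 was that call without Tet2 replicate 2, or without Tet2dRBD replicate 1, 2 or 4. In Tet2 the number was 3 with limma on TPM plus 1 and 3 with TPM plus 0.1 (Cbx2, Ring1 and Rnf2), 0 with no replicate block, 2 with the block and GC correction, 3 without replicate 2 of both lines and 1 to 3 when single replicates were left out. In Tet2dRBD it was 2 and 2 with limma, 0 with no replicate block, 2 with the block and GC correction, 2 without replicate 2 of both lines and 1 to 2 when single replicates were left out. Calls by limma on TPM plus 1 in Tet2dRBD were 3190 higher and 624 lower, against 1014 and 1660 by edgeR. The GC correction and the removal of replicate 2 from both lines were chosen after seeing the data.

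The number of members that differed between Tet1 and Tet2 was 0 in IP effect and 0 in input, and 2 and 4 within the library set of Tet1. It was 0 for Tet2 against Tet2dRBD under every alternative run, with the replicate block included. Members above input in every replicate numbered 4 in Tet1, 2 in Tet2 and 2 in Tet2dRBD. After centring each pair they numbered 1, 1 and 1, at 1.5 times input 0, 0 and 0, and with no replicate block, by means, 6 in Tet2 and 7 in Tet2dRBD. When single replicates were left out they numbered 4 to 6, 2 to 3 and 2 to 5, and the 5 came without Tet2dRBD replicate 2.

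Some effects changed sign. The Rnf2 difference between Tet2 and Tet2dRBD was 0.0013 with the block and GC correction and 0.037 without Tet2dRBD replicate 1 (-0.23 to 0.037 over single replicates left out), and that between Tet1 and Tet2 was -0.072 with the block and GC correction. Ring1 in Tet1 was -0.087 without Tet1 replicate 2 and 0.16 without Tet1 replicate 1. Pcgf6 with limma was 0.0032 (TPM plus 0.1) and 0.0026 (TPM plus 1) in Tet2, and 0.0086 and 0.0052 in Tet2dRBD. The cause of these changes was not tested. The Rnf2 effect kept its sign under all 19 alternatives in each line, from -1.20 to -0.66 in Tet2 and from -1.20 to -0.61 in Tet2dRBD, with 18 of 19 called in both, and from -1.27 to -0.49 in Tet1, with 8 of 19 called. Depth limits Cbx8 and Bmi1 most.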
